A study of Homo sapiens with 6 samples.

Results

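HSPD1, HSPE1, HSPA9 and TRAP1 are chaperones of the mitochondrial matrix, and LONP1, CLPP, CLPX, YME1L1, AFG3L2 and SPG7 encode the ATP-dependent proteases of the matrix and inner membrane. These 10 genes were taken by symbol as the quality-control genes of the mitochondrial unfolded protein response, with a rule that uses no measured value, from the 19330 genes of the count table. All 10 were in the table and all 10 passed the filter on low counts. Their RNA was measured by RNA-Seq in K562, a human chronic myelogenous leukemia cell line. One group carried the lentiviral vector pLentiCRISPRv2, which expresses Cas9, with sgRNAs against N6AMT1 (sgN6AMT1). The other carried the same vector with control sgRNAs (sgCtrl), which are given as targeting the olfactory receptor genes OR11A1 and OR2M49 in the labels. The paper instead names EGFP, or OR11A1 and OR2M4, as the control targets. Both groups were infected, selected with puromycin and collected 10 days after infection, and each holds 3 libraries from separate lentiviral transductions. The cells are transduced pools and not clones, so cells that keep a functional N6AMT1 may remain among them.

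Most mitochondrial proteins are made in the cytosol and enter the matrix unfolded. HSPA9, the mitochondrial HSP70, pulls them in and begins their folding, the chaperonin HSPD1 with its lid HSPE1 completes the folding of many of them, and TRAP1 is the mitochondrial HSP90. LONP1 and the CLPX-CLPP complex degrade damaged matrix proteins, while YME1L1 and the complexes of AFG3L2 with SPG7 degrade and process proteins at the inner membrane. When mitochondrial proteins misfold, or when mtDNA- and nuclear-encoded subunits fall out of balance, cells can raise transcription of such genes, a program called the mitochondrial unfolded protein response and tied in mammals to ATF4, ATF5 and DDIT3.

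HSPD1 and HSPE1 lie head to head on chromosome 2 (GRCh38), HSPD1 at chr2:197486584-197516737 on the minus strand and HSPE1 at chr2:197500140-197503449 on the plus strand, and the starts of their canonical transcripts are 539 bases apart. RefSeq promoter windows (GRCh38.p14) were matched by symbol for 8 of the 10 genes, 11 windows in all, and CLPP and YME1L1 had none. The 250 bases before each start were searched on both strands for the heat shock element letters GAANNTTC and TTCNNGAA, the C/EBP-ATF response element TGATGNAA, the NRF1 core CGCATGCG and the CCAAT box. Heat shock element letters were found in 1 window, that of the canonical HSPD1 start, where 2 copies of TTCNNGAA and 1 of GAANNTTC overlap. They are shown because only this window held the motif, in capitals with 5 bases on each side. The stretch is at chr2:197500063-197500090 on the minus strand, 223 to 250 bases before the HSPD1 start and inside the annotated UTR of longer HSPD1 transcripts. It also lies between the starts of HSPD1 and HSPE1. The HSPE1 window, chr2:197500129-197500378, did not reach it, so the search cannot assign the motif to HSPD1 alone. The upstream sequence of HSPA9, the one member that passed the test below, is shown for comparison. It is at chr5:138575432-138575651 on the minus strand, 31 to 250 bases before the canonical start and free of annotated UTR or coding bases. It still lies inside the annotated HSPA9 gene, which reaches 138575675, and exons of non-coding transcripts were not checked. It held none of the searched letters and therefore has no capitals.
HSPD1: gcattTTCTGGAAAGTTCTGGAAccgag
HSPA9: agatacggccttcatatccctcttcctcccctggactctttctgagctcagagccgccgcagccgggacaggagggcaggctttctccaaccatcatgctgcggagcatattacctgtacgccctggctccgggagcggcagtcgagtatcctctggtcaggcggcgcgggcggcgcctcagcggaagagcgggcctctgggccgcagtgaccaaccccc
Of 35116 promoter windows of the same length, 6.62% held TTCNNGAA, 5.78% GAANNTTC, 3.14% TGATGNAA, 1.73% CGCATGCG and 32.0% CCAAT. Among the members, CGCATGCG was found in a window of an alternative LONP1 start and CCAAT in that of CLPX.

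The libraries differed in depth, with 742470 to 866894 counts in sgCtrl and 959319 to 5526904 in sgN6AMT1, and the members together took 2883 to 3541 and 3289 to 19145 of these counts. The targeted gene N6AMT1 was counted 6, 5 and 9 times in the sgCtrl libraries against 0, 18 and 16 times in sgN6AMT1, or 8.08, 5.77 and 10.4 against 0, 3.26 and 3.94 cpm (counts scaled to the library total), and the 0 allows up to 3.13 cpm, so it was lower in each sgN6AMT1 library but too low to be tested. The 13 mtDNA-encoded genes took 3.21 to 5.26% of counts in sgCtrl and 0.461 to 1.92% in sgN6AMT1. Of 10 erythroid markers of K562 cells, all were tested, HBG1, HBG2 and HBE1 were higher and LMO2 lower, and their summed level was 11040 to 18488 cpm in sgCtrl and 18634 to 35270 cpm in sgN6AMT1. Of 10 markers of other cells, 3 were tested and none was called by edgeR (0 also at an unadjusted p under 0.05). The summed level of the 10 was 189 to 210 cpm in sgCtrl and 149 to 198 cpm in sgN6AMT1. MS4A1 and KRT5 were at 0 in every library, but the markers were not all absent. Most of the sum was EPCAM, with means of 155 cpm in sgCtrl and 124 cpm in sgN6AMT1. CD3D had means of 15.6 and 17.2 cpm, and COL1A2 15.2 and 15.4 cpm. EPCAM, CD3D and COL1A2 were named after their values were seen. The part of these shifts in the results below was not tested.

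Of the 10 members, the chaperone HSPA9 fell in sgN6AMT1 and was the only one called, 1 of 10 lower and 0 of 10 higher at an adjusted p under 0.05 (edgeR quasi-likelihood test, adjusted over the 8324 genes tested), where 4.76% of all genes tested were lower and 5.09% higher. At an unadjusted p under 0.05 there were 3 members, HSPA9 and HSPE1 with lower values and SPG7 with higher values. The log2 fold changes were negative for 8 members and positive for 2, with a median of -0.16, while over all genes tested 4096 were negative and 4228 positive, with a median of 0.01. Groups that did not overlap were seen for 2 members in the lower direction, HSPA9 and HSPE1, and 1 in the higher direction, SPG7, against 14.1% and 15.1% of all genes tested. By role, all 4 chaperones had negative values (median -0.35), although TRAP1 turned to 0.0010 with a filter of at least 10 counts in every library, and 4 of the 6 proteases did (median -0.12).

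**Figure D1:**
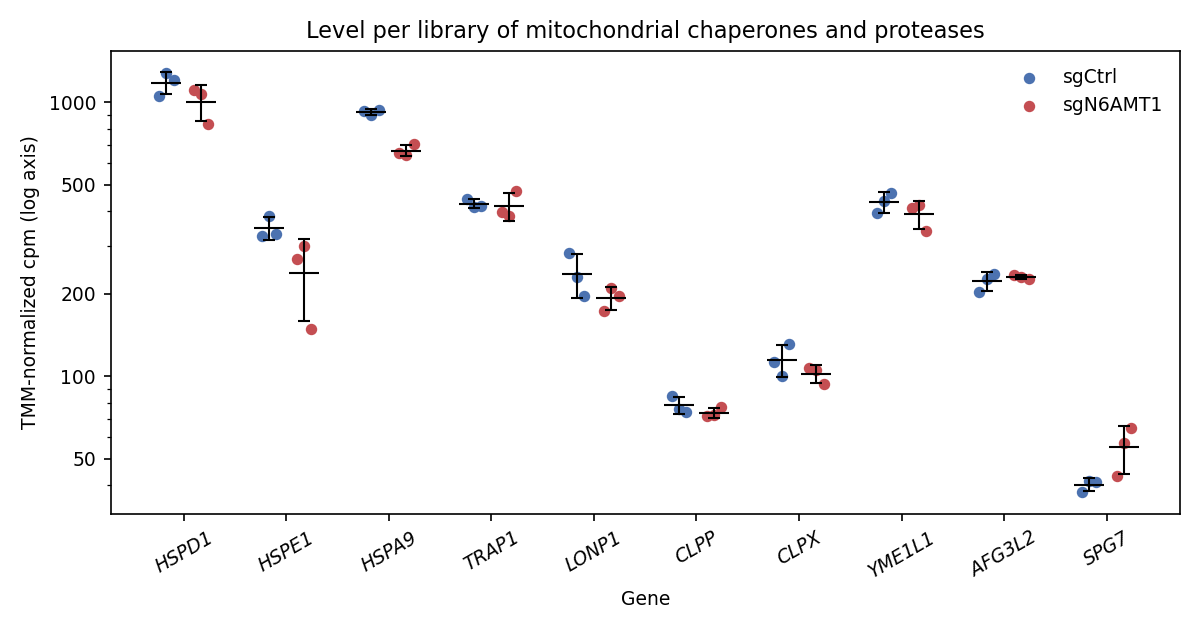
TMM-normalized cpm (log axis) of each member in each library, 3 points per group, with bars for the mean and error bars for the SD. HSPA9, at 922 in sgCtrl and 667 in sgN6AMT1 on average, has all sgN6AMT1 points below all sgCtrl points, as has HSPE1, while 7 members overlap between groups.

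HSPA9 (chr5:138553756-138575675, minus strand) fell. Its TMM-normalized level (scaled so that most genes match between libraries) was 933, 896 and 936 cpm in sgCtrl and 653, 644 and 703 cpm in sgN6AMT1. The 3 sgN6AMT1 libraries were close to each other and all below the lowest sgCtrl library. The means were 922 ± 21.9 and 667 ± 31.8 cpm (SD, n = 3 each), a ratio of 0.724, and the log2 fold change was -0.47 (SE 0.14, 95% CI -0.76 to -0.17, edgeR adjusted p = 0.0432). The value lay just inside the threshold, and the call rests on each of 5 libraries. The adjusted p was 0.107, 0.128 or 0.0592 without sgCtrl replicate 1, 2 or 3 and 0.0843 or 0.161 without sgN6AMT1 replicate 1 or 2, with log2 fold changes of -0.51 to -0.44 over all 6 such fits. DESeq2 gave -0.49 with an adjusted p of 0.00601. In bulk libraries such as these, fewer cells that make the transcript and less transcript per cell cannot be told apart.

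HSPE1, the lid of the chaperonin, had the lowest log2 fold change of the members but did not pass the test. Its level was 325, 385 and 331 cpm in sgCtrl and 268, 298 and 149 cpm in sgN6AMT1. All sgN6AMT1 libraries were below all sgCtrl libraries, and sgN6AMT1 replicate 3 stood far below the other two. The means were 347 ± 33.1 and 238 ± 78.6 cpm (SD, n = 3 each) and the log2 fold change was -0.55 (SE 0.20, 95% CI -0.97 to -0.13, edgeR adjusted p = 0.0867). Without sgN6AMT1 replicate 3 it was -0.29 (adjusted p = 0.261), and without sgN6AMT1 replicate 2 it was -0.76 (adjusted p = 0.0409). HSPE1 shares 192 exon bases with the read-through gene HSPE1-MOB4 on the same strand, and the counts given to HSPE1-MOB4 were 62.3 to 64.8% of those given to HSPE1 in sgCtrl and 56.5 to 61.0% in sgN6AMT1. HSPE1-MOB4 was lower by the same test, 220 ± 17.8 against 139 ± 41.9 cpm, a log2 fold change of -0.67 (SE 0.20, edgeR adjusted p = 0.0377). This call was lost without sgCtrl replicate 1, 2 or 3 (adjusted p = 0.0785, 0.169 and 0.0736) and without sgN6AMT1 replicate 3, where the value was -0.43 (adjusted p = 0.0944). MOB4, the downstream gene, had 33.3 ± 2.85 against 28.4 ± 5.24 cpm and -0.21 (SE 0.26, adjusted p = 0.654). How reads were divided between the 3 names is not given in the sources used here, so the HSPE1 value carries that uncertainty. HSPE1 also shares 7.41% of its exon bases with HSPD1 on the opposite strand, and whether the counting used strand is not given.

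HSPD1, the chaperonin itself, had 1058, 1277 and 1208 cpm in sgCtrl and 1109, 1070 and 836 cpm in sgN6AMT1. The groups overlapped through sgCtrl replicate 1, and sgN6AMT1 replicate 3 was again the lowest library. The means were 1181 ± 112 and 1005 ± 147 cpm (SD, n = 3 each), with a log2 fold change of -0.23 (SE 0.16, 95% CI -0.57 to 0.10, edgeR adjusted p = 0.367). Without sgN6AMT1 replicate 3 it was -0.12 (adjusted p = 0.719). A decrease as large as that of HSPA9 lies inside the interval.

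TRAP1 (chr16:3651639-3717553, minus strand) had 445, 416 and 419 cpm in sgCtrl and 396, 384 and 475 cpm in sgN6AMT1. Unlike for the chaperonin genes, sgN6AMT1 replicate 3 was its highest library. The means were 427 ± 15.8 and 418 ± 49.2 cpm (SD, n = 3 each), and the log2 fold change was -0.03 (SE 0.14, 95% CI -0.33 to 0.27, edgeR adjusted p = 0.934), a sign that changed in several leave-one-out fits. TRAP1 shares 28.5% of its exon bases with DNASE1 on the opposite strand, and whether the counting used strand is not given in the sources used here.

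**Figure D2:**
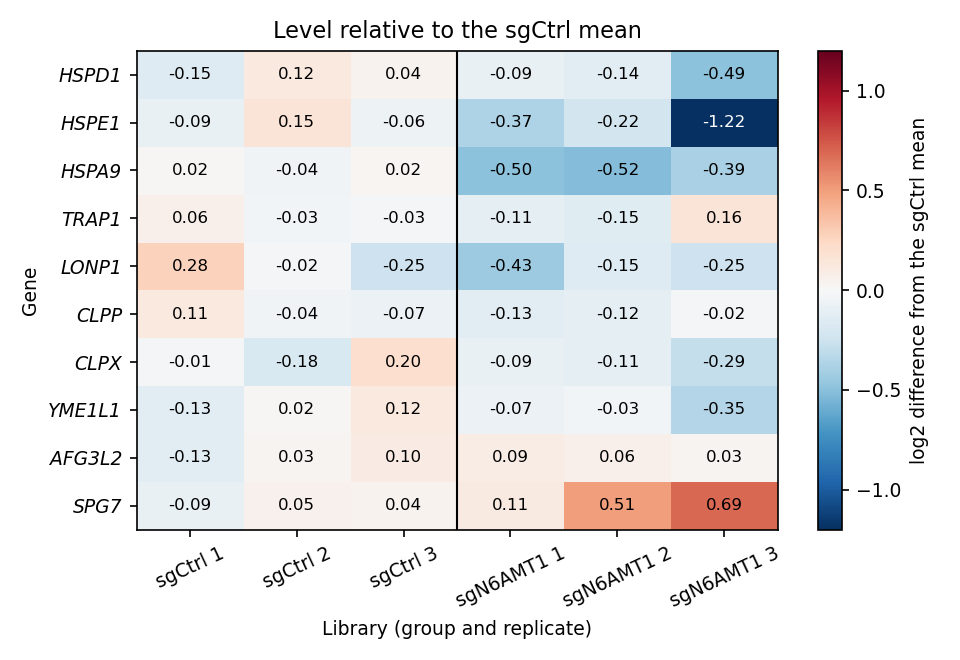
Log2 difference of each library's TMM-normalized cpm from the sgCtrl mean of the same gene (rows, genes, and columns, libraries), blue for lower and red for higher. HSPA9 is at -0.50, -0.52 and -0.39 in the 3 sgN6AMT1 libraries, whereas HSPE1 reaches -1.22 in sgN6AMT1 replicate 3 and SPG7 0.69.

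Among the proteases no member passed the test. LONP1 (chr19:5691834-5720572, minus strand), the Lon protease of the matrix, had 282, 230 and 196 cpm in sgCtrl and 173, 210 and 196 cpm in sgN6AMT1. The spread within sgCtrl was as wide as the distance between the groups, and the groups overlapped. The means were 236 ± 43.6 and 193 ± 18.6 cpm (SD, n = 3 each), with a log2 fold change of -0.28 (SE 0.16, 95% CI -0.61 to 0.06, edgeR adjusted p = 0.285). Without sgCtrl replicate 1, the highest library, it was -0.14 (adjusted p = 0.701), and without sgCtrl replicate 3 it was -0.40 (adjusted p = 0.139).

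CLPX (chr15:65148219-65185342, minus strand) is the unfoldase that feeds substrates to the peptidase CLPP (chr19:6361531-6370242, plus strand). CLPX had 113, 100 and 131 cpm in sgCtrl and 107, 105 and 93.3 cpm in sgN6AMT1. CLPP had 84.7, 76.1 and 74.3 cpm in sgCtrl and 71.7, 72.1 and 77.1 cpm in sgN6AMT1. Both genes overlapped between the groups. The log2 fold changes were -0.17 for CLPX (SE 0.17, 95% CI -0.53 to 0.18, edgeR adjusted p = 0.557) and -0.08 for CLPP (SE 0.18, 95% CI -0.46 to 0.29, adjusted p = 0.813). Over the fits without 1 library they ranged from -0.27 to -0.07 for CLPX (the extremes without sgCtrl replicate 2 and 3, and -0.11 without sgN6AMT1 replicate 3) and were nearest to 0 for CLPP without sgCtrl replicate 1, at -0.03.

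YME1L1 (chr10:27110111-27155266, minus strand), the inner membrane protease that faces the intermembrane space, had 394, 436 and 468 cpm in sgCtrl and 410, 423 and 338 cpm in sgN6AMT1. The lowest library was sgN6AMT1 replicate 3 and the groups overlapped. Its log2 fold change was -0.15 (SE 0.15, 95% CI -0.46 to 0.16, edgeR adjusted p = 0.556), and it was -0.09 without sgCtrl replicate 3 and -0.05 without sgN6AMT1 replicate 3.

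AFG3L2 (chr18:12328944-12377227, minus strand) and SPG7 (chr16:89490719-89557766, plus strand), the latter also called paraplegin, form the inner membrane protease that faces the matrix, and AFG3L2 can also assemble alone. AFG3L2 had 203, 226 and 237 cpm in sgCtrl and 235, 231 and 226 cpm in sgN6AMT1, so its sgN6AMT1 libraries all lay inside the sgCtrl range. AFG3L2 shares 11.7% of its exon bases with TUBB6 on the opposite strand, and whether the counting used strand is not given. Its log2 fold change of 0.05 had the interval -0.25 to 0.35 (SE 0.14, edgeR adjusted p = 0.857). SPG7 had 37.6, 41.5 and 41.3 cpm in sgCtrl and 43.2, 56.9 and 64.8 cpm in sgN6AMT1. Every sgN6AMT1 library was above every sgCtrl library, but replicate 1 by only a small margin. The means were 40.1 ± 2.18 and 55.0 ± 10.9 cpm (SD, n = 3 each), and the log2 fold change was 0.49 (SE 0.22, 95% CI 0.02 to 0.96, edgeR adjusted p = 0.172). SPG7 had the fewest counts of the members, with 28, 36 and 35 in sgCtrl against 41, 312 and 252 in sgN6AMT1, and the 28 counts alone carry a 95% Wilson interval of 26.1 to 54.5 cpm, which covers counting error only.

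**Figure D3:**
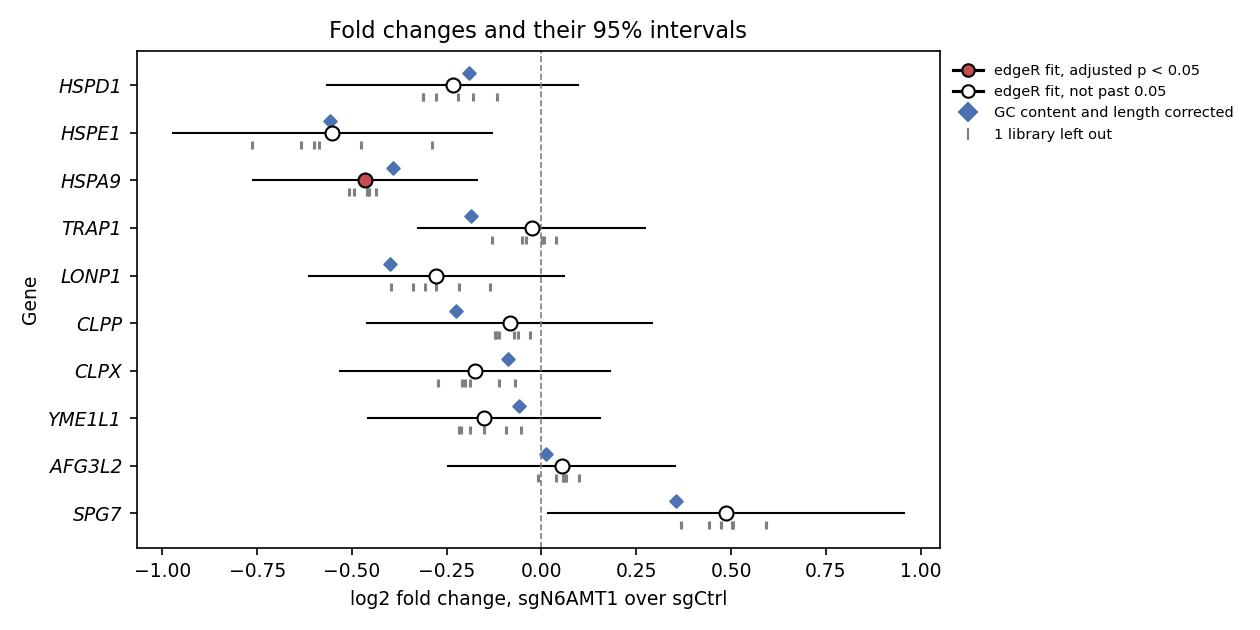
Log2 fold change, sgN6AMT1 over sgCtrl, of each member with its 95% interval (circles and lines, red where the adjusted p was under 0.05), with the value after correction for GC content and length (diamonds) and with 1 library left out in turn (ticks). Only HSPA9 is red, and the HSPE1 ticks reach from -0.76 to -0.29.

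GC content moved with the fold changes over all genes, with medians of -0.14, -0.07, 0.02, 0.11 and 0.18 over 5 equal groups of genes ordered from the least GC to the most. HSPE1 (39.3% GC) was in the lowest group, HSPD1 (41.7%), HSPA9 (42.1%), CLPX (41.3%) and YME1L1 (40.3%) were in the next, and TRAP1 (57.5%), LONP1 (62.6%) and SPG7 (58.3%) in the highest. With a correction for GC content and length, 2 members passed the test, HSPA9 at -0.39 (edgeR adjusted p = 0.0424) and HSPE1 at -0.56 (adjusted p = 0.0364). Over all 8324 genes tested, 491 were lower and 429 higher with this correction. LONP1 moved to -0.40 (adjusted p = 0.0743), TRAP1 to -0.19 (adjusted p = 0.317) and SPG7 to 0.35 (adjusted p = 0.284). CLPP (55.7% GC) moved to -0.23 (adjusted p = 0.397), while CLPX moved to -0.09 (adjusted p = 0.760) and YME1L1 to -0.06 (adjusted p = 0.793). No call changed for the other members.

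Summed over the members, the level was 4000 ± 111 cpm in sgCtrl and 3373 ± 185 cpm in sgN6AMT1 (SD, n = 3 each). Most of this difference was in the chaperones, at 2877 ± 109 against 2329 ± 144 cpm, and less in the proteases, at 1124 ± 20.4 against 1045 ± 50.8 cpm. The chaperone sums were 2760, 2975 and 2894 cpm in sgCtrl and 2426, 2397 and 2164 cpm in sgN6AMT1, without overlap, but HSPD1 and HSPA9 make up most of them.

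Partners that work in 1 complex were also compared within each library as a ratio of counts, which needs no scaling between libraries. The HSPD1 to HSPE1 ratio was 3.25, 3.31 and 3.65 in sgCtrl and 4.14, 3.60 and 5.61 in sgN6AMT1. The groups overlapped between 3.60 and 3.65, and the log2 ratio differed by 0.36 (1.77 ± 0.089 against 2.13 ± 0.33, SD, n = 3 each, two-sided exact permutation p = 0.2, adjusted p = 0.3 over the 3 ratios). The AFG3L2 to SPG7 ratio was 5.39, 5.44 and 5.74 in sgCtrl and 5.44, 4.05 and 3.50 in sgN6AMT1, with replicate 1 of sgN6AMT1 among the sgCtrl values and the other two below them. Its log2 ratio differed by -0.38 (2.47 ± 0.049 against 2.09 ± 0.32, n = 3 each, exact permutation p = 0.2, adjusted p = 0.3). The CLPX to CLPP ratio was 1.33, 1.32 and 1.76 in sgCtrl and 1.5, 1.46 and 1.21 in sgN6AMT1, a log2 difference of -0.07 (exact permutation p = 0.8, adjusted p = 0.8). With 3 libraries a group this exact permutation test cannot go below p = 0.1, so none of the ratios could have passed 0.05.

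**Figure D4:**
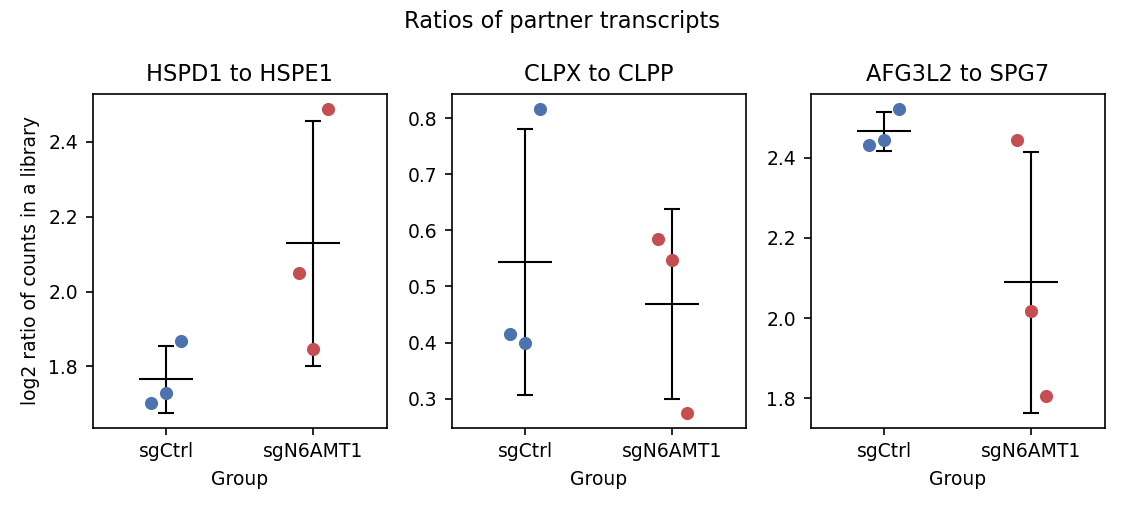
Log2 ratio of counts between partner genes in each library, for HSPD1 to HSPE1, CLPX to CLPP and AFG3L2 to SPG7, with bars for the mean and error bars for the SD of 3 libraries per group; each panel has its own axis. The sgN6AMT1 libraries spread more widely than sgCtrl for HSPD1 to HSPE1 (SD 0.33 against 0.089) and AFG3L2 to SPG7 (0.32 against 0.049).

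Levels of different genes were compared per kb of the canonical transcript. For HSPE1 this length is 557 bases, against 1823 exon bases over all its transcripts. The SDs below cover neither the choice of length nor the division of reads between HSPE1 and HSPE1-MOB4. In sgCtrl, HSPE1 was highest at 623 ± 59.4 cpm per kb, followed by HSPD1 at 526 ± 50.03, and these stood at percentiles 98.0 and 97.8 of the 8162 tested genes with a length. HSPA9 (209 ± 4.98) and TRAP1 (192 ± 7.10) followed, then YME1L1 (103 ± 8.89), LONP1 (76.3 ± 14.1) and AFG3L2 (70.3 ± 5.51). CLPP (32.5 ± 2.30), CLPX (24.4 ± 3.26) and SPG7 (13.0 ± 0.709) were lowest, SPG7 at percentile 45.8. Of neighbours in this order, the ranges over the 3 sgCtrl libraries overlapped only for LONP1 (63.3 to 91.3 cpm per kb) and AFG3L2 (64.2 to 75.0). In sgN6AMT1 the order differed at 3 places. HSPD1 (448 ± 65.7 cpm per kb) and HSPE1 (428 ± 141) overlapped and traded places, TRAP1 (188 ± 22.1) was above HSPA9 (151 ± 7.23) with ranges of 173 to 214 against 146 to 160, and AFG3L2 (73.0 ± 1.34) was above LONP1 (62.4 ± 6.02). The chaperones thus took the top 4 places of the 10 in both groups.

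The genes around the members were followed as 4 lists, whose counts are to be read beside the 5.09% of all genes tested that were higher and the 4.76% that were lower. Of 15 co-chaperones, scaffolds and other partners of the chaperones and proteases, 12 were tested, with 1 higher, 0 lower and a median log2 fold change of 0.22. The gene that rose was STOML2, an inner membrane scaffold protein that binds YME1L1, at 185, 165 and 186 cpm in sgCtrl and 273, 276 and 295 cpm in sgN6AMT1, without overlap. Its log2 fold change was 0.66 (179 ± 12.1 against 281 ± 12.2 cpm, SD, n = 3 each, SE 0.14, edgeR adjusted p = 0.00955), and it was 0.59 (adjusted p = 0.0836) without sgCtrl replicate 2. The prohibitins, which form rings around the AFG3L2 proteases, did not pass, with PHB at 313 ± 17.03 against 408 ± 12.04 cpm (0.39, SE 0.14, adjusted p = 0.0803) and PHB2 at 321 ± 43.5 against 338 ± 56.7 cpm (0.08, SE 0.16, adjusted p = 0.800). GRPEL1, the nucleotide exchange factor of HSPA9, had 70.0 ± 8.004 against 63.1 ± 8.65 cpm (log2 fold change -0.18, adjusted p = 0.604), a gene named after its values were seen. CLPB was not analysed here.

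Of 17 other mitochondrial peptidases and their substrates or partners, 16 were tested, with 1 higher, 1 lower and a median of -0.10. PMPCB, a subunit of the peptidase that removes mitochondrial targeting presequences, rose from 96.7 ± 8.87 to 141 ± 6.10 cpm, a log2 fold change of 0.54 (SE 0.16, edgeR adjusted p = 0.0438). NLN, neurolysin, fell from 90.0 ± 6.17 to 59.3 ± 3.58 cpm, a log2 fold change of -0.59 (SE 0.18, adjusted p = 0.0439). DESeq2 called neither of these genes. The PMPCB call was lost when any 1 library was left out (adjusted p 0.0594 to 0.156), and the NLN call when any but sgN6AMT1 replicate 3 was (0.0471 to 0.136 over the 6 fits). Named after their values were seen, OMA1, the stress-activated protease that cleaves the fusion protein OPA1, had 47.5 ± 3.01 against 32.1 ± 5.75 cpm (-0.58, SE 0.24, adjusted p = 0.124), and OPA1 itself, also a substrate of YME1L1, had 280 ± 26.8 against 217 ± 17.5 cpm (-0.37, SE 0.15, adjusted p = 0.115).

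Of 21 regulators linked to mitochondrial stress signalling, 16 were tested, with 2 higher, 0 lower and a median of 0.14. DELE1 (listed under its older symbol KIAA0141), which relays mitochondrial stress to the kinase EIF2AK1, rose from 27.4 ± 3.72 to 51.0 ± 9.03 cpm, a log2 fold change of 0.92 (SE 0.25, edgeR adjusted p = 0.0250). TRIB3, a target of ATF4, was called higher at 0.99 (36.2 ± 15.3 against 68.6 ± 29.1 cpm, SE 0.30, adjusted p = 0.0463), although its groups overlapped, with 53.8, 25.4 and 29.5 cpm in sgCtrl and 44.3, 60.8 and 101 cpm in sgN6AMT1. DESeq2 called neither. The DELE1 call was lost without sgCtrl replicate 1 or 2 or sgN6AMT1 replicate 3 (edgeR adjusted p = 0.0670, 0.136 and 0.0921). The TRIB3 call was lost without sgCtrl replicate 2 or 3 or sgN6AMT1 replicate 3 (edgeR adjusted p = 0.234, 0.145 and 0.187). The log2 fold change of TRIB3 was 0.61 in the last of these fits and 1.37 without sgCtrl replicate 1. The transcription factors of the response were named after their values were seen. ATF4 had 285, 300 and 356 cpm in sgCtrl and 391, 403 and 379 cpm in sgN6AMT1, without overlap, and did not pass (log2 fold change 0.32, SE 0.14, adjusted p = 0.165). DDIT3 had -0.10 (SE 0.33, adjusted p = 0.883). ATF5 was too low to be tested. It had 10.8, 11.5 and 8.25 cpm in sgCtrl and 3.16, 3.29 and 4.63 cpm in sgN6AMT1, lower and without overlap.

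Of 25 chaperones of the cytosol and the ER, 24 were tested, with 1 higher, 0 lower and a median of -0.06. The log2 fold changes were negative for 14 and positive for 10. Groups did not overlap for 5 in the lower direction and 3 in the higher, against 14.1% and 15.1% of all genes tested. Among the 14, named after their values were seen, were HSP90AA1 at -0.42 (edgeR adjusted p = 0.232), DNAJA1 at -0.40 (adjusted p = 0.107) and HSP90B1 at -0.36 (adjusted p = 0.149). HSPA1A, the heat-inducible cytosolic HSP70, rose from 462 ± 49.7 to 811 ± 117 cpm, a log2 fold change of 0.81 (SE 0.16, edgeR adjusted p = 0.00389), and it stayed past the threshold in each fit that left out 1 library. Its near-identical copy HSPA1B has no row under that symbol in the count table. How reads that match both copies were counted is therefore uncertain. The constitutive HSPA8 had 4278 ± 401 against 4561 ± 555 cpm (0.09, SE 0.16, adjusted p = 0.773), and HSP90AB1, the cytosolic HSP90, had 2676 ± 124 against 2421 ± 271 cpm (-0.14, SE 0.16, adjusted p = 0.604). HSPA5, the HSP70 of the ER, named after its values were seen, had 228 ± 32.7 against 164 ± 44.4 cpm (-0.50, SE 0.19, adjusted p = 0.105). It passed in 4 of 17 alternatives and moved to -0.29 (adjusted p = 0.309) without sgN6AMT1 replicate 3. Within the HSP70 family the called genes therefore lay on opposite sides, HSPA9 lower and HSPA1A higher. Whether the fold changes of these genes differ from each other was not tested.

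**Figure D5:**
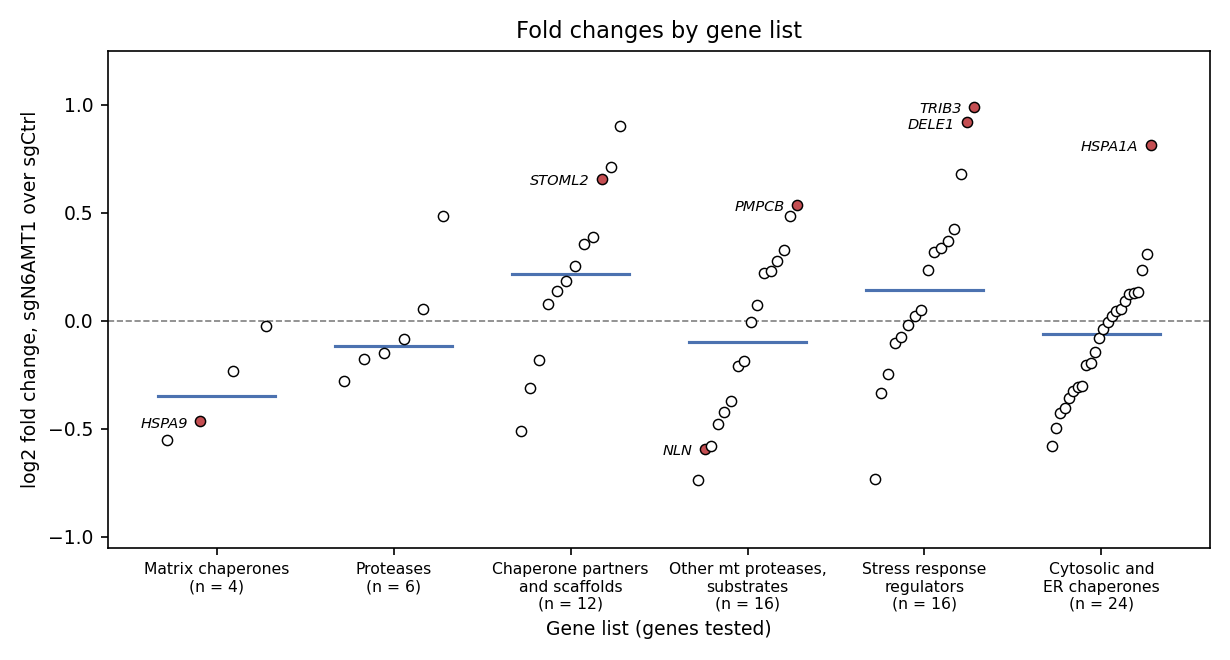
Log2 fold change, sgN6AMT1 over sgCtrl, of every tested gene of the members (4 chaperones, 6 proteases) and of the 4 other lists, with a bar at each list's median; red points passed an adjusted p of 0.05 and are named. The 4 matrix chaperones, the smallest group, all lie below 0, with a median of -0.35 and TRAP1 at -0.03, a sign that did not hold in every alternative. Of the 24 cytosolic and ER chaperones, 14 lie below 0.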

How the data were processed

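RNA-Seq was analysed for 6 libraries of K562 cells, 3 per group, each from its own lentiviral transduction according to the paper. The molecule is labelled as polyA RNA, whereas the library kit named in the labels is a stranded total RNA kit with rRNA depletion. The authors trimmed reads with cutadapt (minimum length 15, quality cutoff 2), mapped them with HISAT2 to GRCh38, overlapped them with annotation release 84, and deposited raw counts per gene. The counting tool and its use of strand are not given in the sources used here, so overlapping genes on opposite strands may share reads.

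From the deposited counts, genes were filtered by filterByExpr, normalized by TMM and tested by edgeR 4.0.16 in R 4.3.3 (glmQLFit with its legacy setting, glmQLFTest, no covariates). The filter left 8324 genes, over which p-values were adjusted by Benjamini-Hochberg, and the common BCV was 0.16. Levels are TMM-normalized cpm. For ratios, an exact permutation test (two-sided) was run with scipy 1.17.1 under Python 3.11.15. The alternatives were DESeq2 1.42.0, other scalings, filters and thresholds, thinning of the 2 deepest libraries to the median total of the other 4, a replicate block, a correction for GC content and length (loess) and leaving out each library. Where a count was 0, up to 3 counts were taken as possible, and intervals for single libraries are 95% Wilson intervals. Transcript lengths, GC content and coordinates come from GENCODE v44, to which 18850 of 19330 symbols matched, 866 through an older symbol.

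The rule for the members is by symbol alone, but members and gene lists were chosen with earlier results of these data known, so their counts are descriptions. Named genes are the members, N6AMT1 and, of each other list, at most 5 genes called with the smallest adjusted p, or the 2 with the highest mean level as well where fewer than 2 were called. Other genes are said to be named after their values were seen. Comparison results of the authors and the other assays of the study were not used here.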

Additional observations from a re-analysis of the deposited data

How the results depend on the processing

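The members called numbered 1 with DESeq2 and with the other scalings, the newer quasi-likelihood method and thinning, 2 with no filter, with the replicate block and with the GC content and length correction, 3 with that correction and the block, and 0 with at least 10 counts in every library or at an adjusted p under 0.01. They ranged from 0 to 1 over the fits that left out 1 library. Every member called in these fits was lower. Over all genes, the lower calls were 396 of 8324 in the main fit and 573 of 13874 with no filter. Of the same 8324 genes, 608 were lower with the block, 491 with the GC correction and 733 with both. HSPA9 kept a negative sign in 17 of 17 alternatives (-0.51 to -0.39) and passed in 11 (adjusted p 0.00601 to 0.161). It missed with at least 10 counts in every library (adjusted p = 0.0542) and in the leave-one-out fits given above. HSPE1 was negative in 17 of 17 (-0.76 to -0.29, adjusted p 0.000966 to 0.297) and passed in 5, namely with no filter (0.0122), with the block (-0.60, 0.0121), with the GC correction, with both (0.000966) and without sgN6AMT1 replicate 2. LONP1 passed in 1, at -0.39 with the correction and the block (adjusted p = 0.0246), and the other members in 0.

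Whether the same replicate number pairs the samples is not settled by the libraries, and the main fit used no block. The correlations of their deviations from the group means were -0.00052, 0.083 and 0.190 for replicates 1, 2 and 3, not all above 0.1. The sgN6AMT1 replicates 2 and 3 correlated best with the sgCtrl replicate of their own number and replicate 1 with sgCtrl replicate 2 (0.140). With the replicate block, chaperone partners called were 2 (1 higher, 1 lower) and cytosolic and ER chaperones 3 (1 higher, 2 lower). With the GC correction as well, cytosolic and ER chaperones called were 8 (2 higher, 6 lower). Over all genes, 1195 were called with the block (587 higher, 608 lower) against 820 (424 higher, 396 lower).

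Chaperone partners called (1) ranged from 0 to 2 over the fits without 1 library. Other proteases called (2) were 0 with DESeq2, after thinning and at 0.01, 1 with total counts, with at least 10 counts in every library and with the GC correction, and 0 to 1 without 1 library. Stress regulators called (2) were 0 with DESeq2 and at 0.01, 1 with total counts and with the GC correction, and 0 to 3 without 1 library. They were 3, with 2 higher and 1 lower, with no filter, with the replicate block and with the GC correction and the block. Cytosolic and ER chaperones called (1) were 2 with no filter and 1 to 2 without 1 library, with 1 higher and 1 lower where 2 were called. Over all genes, 1201 were called with no filter, 1341 with the GC correction and the block, 214 at 0.01 and 220 to 951 without 1 library. Signs reversed for TRAP1 (0.0010 with at least 10 counts in every library, -0.13 to 0.039 without 1 library), AFG3L2 (-0.010 to 0.10 without 1 library), PHB2 (-0.12 with the GC correction, also with the block, and -0.073 to 0.19 without 1 library), HSPA8 (-0.0065 to 0.17 without 1 library), DDIT3 (-0.19 to 0.071 without 1 library) and the CLPX to CLPP ratio (-0.15 to 0.062 without 1 library). Where a call or sign changed, the cause was not tested. Of the members, SPG7 had the fewest counts, 28 to 36 in sgCtrl.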
